A study of Mus musculus with 30 samples.

Results

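The genes described here are the writers and erasers of DNA methylation, 8 of the 53431 genes in the deposited table: Dnmt1, Uhrf1, Dnmt3a, Dnmt3b, Dnmt3l, Tet1, Tet2 and Tet3. They were chosen by name, and each symbol matched 1 Ensembl identifier. The study compared CT-26 and Colon 26, murine colon carcinoma cell lines derived from BALB/c mice used as models for immune checkpoint therapy. RNA-seq of polyA RNA covered 30 libraries in 8 groups, with 3 cultures of each line and 4 tumors of each model at about 100, 400 and 800 mm3. Female BALB/c mice carried each tumor in the right flank, and volumes were 103.33 to 145.86, 400.47 to 464.68 and 810.36 to 938.57 mm3 in CT-26, and 102.9 to 124.88, 401.52 to 466.73 and 807.93 to 963.18 mm3 in Colon 26. The labels of all 30 libraries carry a text on dosing mice with antibodies to CTLA-4, PD-1 and PD-L1, and none says which antibody, if any, a given mouse received. The tumors were taken as untreated, which could not be checked, and tumor values may include treated animals. No ages are given, each model is a single line, and nothing says whether the cultures of a line were grown separately. P-values therefore measure the spread between these libraries, which may be technical.

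Dnmt1 copies the methylation pattern onto newly made DNA, and Uhrf1 brings it to hemimethylated sites behind the replication fork. Dnmt3a and Dnmt3b add methyl groups to unmethylated sites, with Dnmt3l as a catalytically inactive partner known mainly from germ cells. Tet enzymes oxidize 5-methylcytosine as the first step of its removal. Dnmt1 and Uhrf1 are known to be expressed mostly in dividing cells.

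Promoter sequences from RefSeq (GRCm38.p6) are shown for the maintenance pair, the most abundant members, and for Dnmt3b, the member that differed between the tumors of the models by the largest fold. All 8 genes had an entry, 15 start regions in all. Capitals mark CCAAT and the E2F words TTTGGCGC, TTTCCCGC, TTTCGCGC and TTTGCCGC on either strand. The first stretch is the 250 bases before a Uhrf1 start (chr17:56304063-56304312, plus strand), inside the annotated gene and outside annotated GENCODE exons. The second is a 30-base stretch before a Dnmt1 start (chr9:20952833-20952862, minus strand), which lies in a 5′ untranslated exon of a GENCODE Dnmt1 transcript. The third is the 250 bases before the Dnmt3b start (chr2:153649199-153649448, plus strand).
Uhrf1: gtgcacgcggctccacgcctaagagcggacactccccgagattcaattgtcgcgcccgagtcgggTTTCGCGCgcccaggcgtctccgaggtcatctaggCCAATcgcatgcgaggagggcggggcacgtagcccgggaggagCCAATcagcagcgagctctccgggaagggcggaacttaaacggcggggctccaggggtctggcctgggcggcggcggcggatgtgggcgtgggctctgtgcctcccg
Dnmt1: ctcCCAATTGGtttccgcgcGCGCGAAAaa
Dnmt3b: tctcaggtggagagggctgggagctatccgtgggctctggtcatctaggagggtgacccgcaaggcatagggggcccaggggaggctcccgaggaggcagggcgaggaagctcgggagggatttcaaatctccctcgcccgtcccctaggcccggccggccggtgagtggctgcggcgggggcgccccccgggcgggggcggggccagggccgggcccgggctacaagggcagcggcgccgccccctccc

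The word TTTCGCGC stood in both maintenance genes, on the reverse strand in Dnmt1, where it reads GCGCGAAA. It is found in 0.256% of 32851 mouse start regions of 250 bases, and any of the E2F words in 1.86%. Of the 15 start regions of the members, 2 held such a word, and the other starts of Uhrf1 and Dnmt1 held none. The printed Uhrf1 and Dnmt1 stretches were chosen because they hold the word. These shares therefore do not measure how unlikely the match is. CCAAT, found in 33.8% of all regions, occurred in the printed Uhrf1 and Dnmt1 stretches and not in that of Dnmt3b. These matches are descriptions of letters and not of binding.

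The depth of the libraries was 21384697 to 39722554 gene counts, and the Colon 26 cultures (36042918 to 39722554) were deeper than those of CT-26 (21384697 to 27856353). The labels give the tumors, the CT-26 cultures and the Colon 26 cultures separate ranges of library numbers. In culture the line and any difference in handling therefore cannot be told apart. The same limit holds for the changes from culture to tumor and for the interaction of model and tissue. The numbers of the tumors also run in separate blocks by model and size. Any handling that followed those blocks cannot be told apart from model or size. Of 12 leukocyte markers, 10 or 11 reached a mean of 1 CPM (counts scaled by library size and TMM) in each tumor group. Only 1 of the 12 did so in the cultures of each line. In CT-26 cultures 6, and in Colon 26 cultures 8, had no more than 3 counts in any library. The sum of the 12 was 261 to 1100 CPM in tumors, 61.0 to 67.8 CPM in CT-26 cultures and 4.08 to 5.27 CPM in Colon 26 cultures. The sum in CT-26 cultures thus rests mainly on 1 gene. All 6 endothelial markers reached 1 CPM in every tumor group and none did in culture. The epithelial marker Epcam was at 0 in all 6 cultures and at no more than 38 counts in any tumor, although the lines are labelled as colon carcinoma. Of the 10 colon epithelium genes listed, Epcam among them, 3 reached 1 CPM in the cultures of each line and 4 to 6 in the tumor groups. Their sum was 44.7 to 45.9 CPM in CT-26 cultures and 14.6 to 15.1 CPM in Colon 26 cultures. In these bulk libraries, fewer cells of a type and less RNA per cell cannot be told apart.

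Levels per gene length were compared by FPKM, the authors' values scaled by depth and gene length. Uhrf1 and Dnmt1 were the highest members in all 8 groups, followed by Tet3, Tet2 and Dnmt3a, while Dnmt3b, Dnmt3l and Tet1 were low. In CT-26 culture the mean for Uhrf1 was 19.3 ± 0.351 FPKM (SD, n = 3) and Dnmt1 lay between 17.6 and 18.3 FPKM. In CT-26 tumors of 100 mm3 Uhrf1 reached 73.6 FPKM and Dnmt1 37.9 FPKM. The order of the next 3 genes varied. Tet3 came next after the maintenance pair in 7 groups and Dnmt3a in Colon 26 culture, at 6.15 FPKM against 4.81 FPKM for Tet3. Neighbours whose libraries overlapped were Tet2 and Dnmt3a in CT-26 tumors of 400 and 800 mm3 and Colon 26 tumors of 400 mm3, Tet3 and Dnmt3a in Colon 26 tumors of 800 mm3, and Dnmt3b and Dnmt3l in 3 groups. The remaining neighbours did not overlap within a group. Rescaling FPKM to TPM left the order the same in all 8 groups. It multiplies all genes of a library by the same factor, so it is no check on the order.

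**Figure D1:**
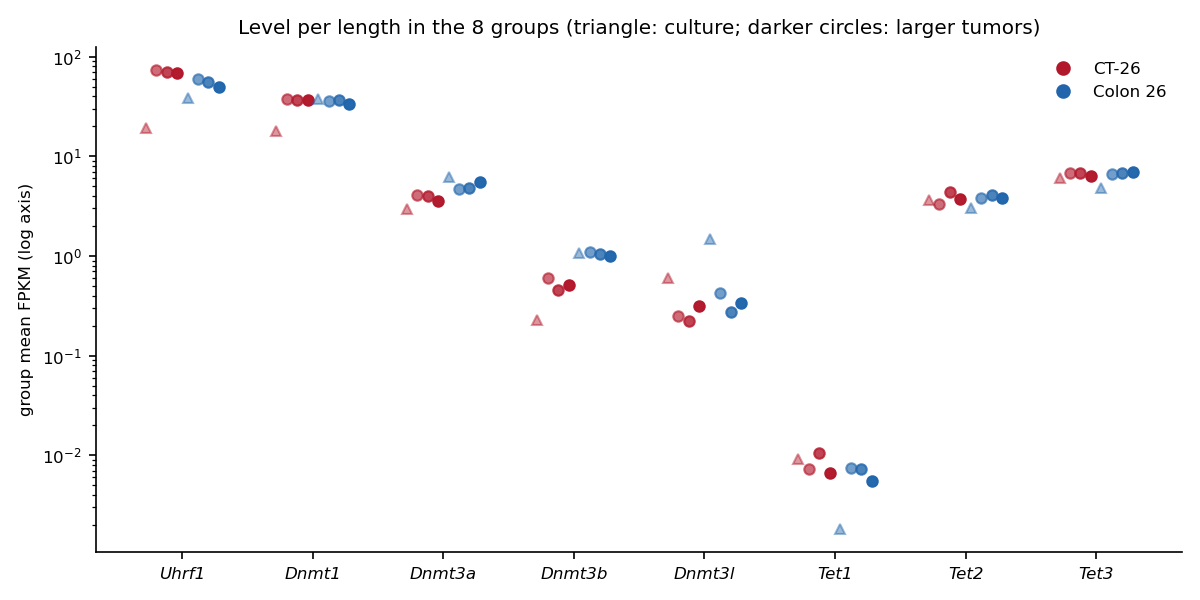
Group mean FPKM on a log axis for the 8 members; red is CT-26, blue is Colon 26, triangles are cultures and circles tumors, darker with size. Uhrf1 and Dnmt1 lie above the other members in every group and Tet1 lies lowest, between 0.0018 and 0.0106 FPKM.

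The members were read against 2 rules. A gene was called DE where its adjusted p did not exceed 0.1 and its log2 fold change reached 1 in either direction, and was said to differ where that p was met whatever the fold. All adjusted p-values come from edgeR's quasi-likelihood test with Benjamini-Hochberg adjustment over all genes tested. Tet1 failed the filter on low counts in every comparison and Dnmt3l failed it at 400 mm3, so 7 members were tested in each other comparison and 6 at 400 mm3.

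RNA of both maintenance genes was lowest in cultured CT-26 cells among the 8 groups. Dnmt1 measured 95.9, 97.4 and 98.2 CPM in CT-26 cultures and 192, 198 and 199 CPM in Colon 26 cultures. These groups did not overlap, and Dnmt1 was DE with 2.09-fold more in Colon 26 (log2 1.06, SE 0.03, adjusted p = 1.3e-14). Uhrf1 measured 66.5, 69.2 and 71.3 CPM in CT-26 cultures and 133, 133 and 134 CPM in Colon 26 cultures. The Uhrf1 difference was as clear but lay just under the fold threshold, at log2 0.999 (SE 0.031, adjusted p = 4.6e-14). It passed the threshold with DESeq2 (log2 1.01) and with library size scaling alone (log2 1.01).

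In tumors Uhrf1 was the higher in CT-26. At 100 mm3 Uhrf1 measured 253, 258, 261 and 262 CPM in CT-26 and 198, 202, 206 and 209 CPM in Colon 26. Every CT-26 tumor lay above every Colon 26 tumor, here and at 400 and 800 mm3. Uhrf1 was lower in Colon 26 by 0.35 on the log2 scale at 100 mm3 (SE 0.044, adjusted p = 0.00023), by 0.40 at 400 mm3 (SE 0.07, adjusted p = 0.0019) and by 0.54 at 800 mm3 (SE 0.061, adjusted p = 5.2e-05). Dnmt1 followed in direction with smaller differences. At 100 mm3 Dnmt1 measured 192, 199, 202 and 220 CPM in CT-26 and 183, 186, 193 and 193 CPM in Colon 26, and these groups overlapped (log2 fold change -0.11, adjusted p = 0.13). The log2 fold change was -0.07 at 400 mm3 (adjusted p = 0.39) and -0.22 at 800 mm3 (SE 0.066, adjusted p = 0.019), and the latter did not pass with library size scaling alone (adjusted p = 0.12). Over all 24 tumors, with size as a covariate, Dnmt1 was lower in Colon 26 by a log2 fold change of -0.105 (SE 0.035, adjusted p = 0.011), which did not pass with that scaling either (adjusted p = 0.11). With any 1 tumor left out it was -0.146 to -0.118, a range that does not include the value of the full fit.

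**Figure D2:**
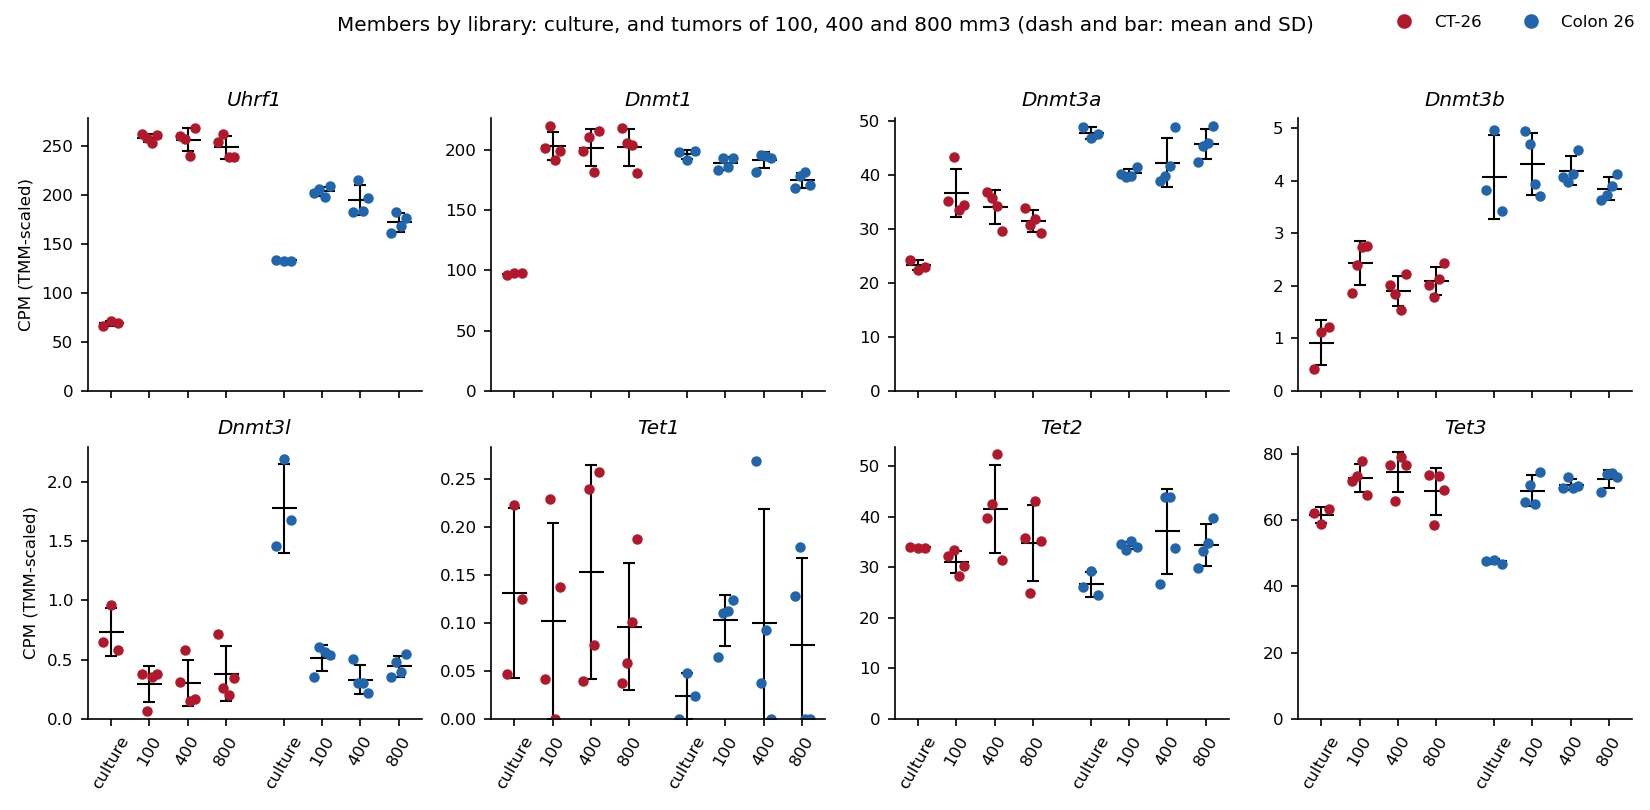
TMM-scaled CPM of each member in every library, by group, with the mean and SD of the group; red is CT-26 and blue is Colon 26. The 3 CT-26 cultures lie lowest for Uhrf1 and Dnmt1, and the 12 CT-26 tumors lie above the 12 Colon 26 tumors for Uhrf1.

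From culture to the 100 mm3 tumor, the pair rose in CT-26. Uhrf1 went from a mean of 69.0 to 259 CPM, 3.77-fold (log2 1.91, SE 0.053, adjusted p = 2.6e-07), and Dnmt1 from 97.2 to 203 CPM, 2.10-fold (log2 1.07, SE 0.071, adjusted p = 5e-06). In Colon 26, Uhrf1 rose from 133 to 204 CPM, 1.53-fold (log2 0.62, SE 0.031, adjusted p = 2.2e-07). Dnmt1 in Colon 26 was 196 CPM in culture and 189 CPM in tumors (log2 fold change -0.05, 95% interval -0.12 to 0.02, adjusted p = 0.18). The change differed between the models by an interaction term of -1.34 for Uhrf1 (SE 0.05, adjusted p = 7.5e-10) and -1.17 for Dnmt1 (SE 0.074, adjusted p = 4.4e-08). This term uses the same libraries as the comparisons above.

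Uhrf1 and Dnmt1 did not rise in proportion. Uhrf1 counts per Dnmt1 count were 0.694 to 0.732 in CT-26 cultures and 0.669 to 0.691 in Colon 26 cultures, against 1.17 to 1.33 in the 12 CT-26 tumors and 0.924 to 1.11 in the 12 Colon 26 tumors. Every tumor lay above every culture, and the tumors of the models did not overlap. The ratio was examined after the values had been seen, over 6 comparisons with two-sided exact permutation tests. Between the models the exact test gave p = 0.029 at each tumor size, the smallest that 4 against 4 allows (adjusted p = 0.058), and p = 0.1 in culture, the smallest that 3 against 3 allows. For tumor against culture the exact test gave p = 0.057 in each model, also the smallest possible.

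Proliferation genes were lowest in the CT-26 cultures too. The mean log2 CPM of 16 replication and cell cycle genes, among them Mki67, Top2a and Mcm2 to Mcm7, was 5.93 to 5.99 in the CT-26 cultures, 7.04 to 7.11 in the Colon 26 cultures, 7.19 to 7.50 in CT-26 tumors of 100 mm3 and 7.00 to 7.07 in Colon 26 tumors of 100 mm3. Of these 16 genes 10 were DE in culture, all higher in Colon 26, where 22.9% of all genes tested were DE. Their median log2 fold change was 1.27 against 0.01 over all genes tested. In the CT-26 tumors 12 were DE and higher than in culture (median 1.42 against 0.06, background 32.2%). In Colon 26 tumors none was DE (median -0.04 against 0.05, background 26.9%). Dnmt1 stood 0.65 above this mean on the log2 scale in CT-26 culture and 0.54 above it in Colon 26 culture. In tumors the order of the models was reversed, with group means 0.315 to 0.434 above it in CT-26 and 0.522 to 0.591 above it in Colon 26. Relative to the same mean, Uhrf1 was 0.15 and -0.02 in the cultures and 0.52 to 0.78 in the 6 tumor groups. The part of proliferation in these differences was not tested.

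**Figure D3:**
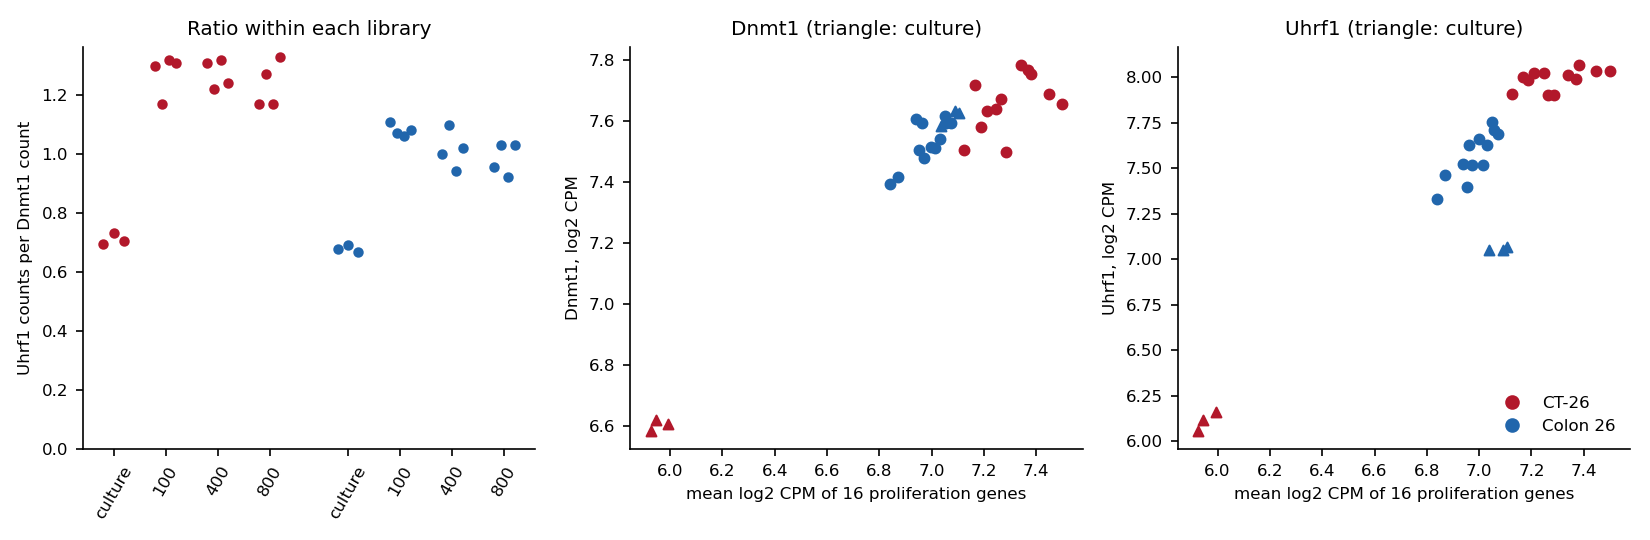
Left, Uhrf1 counts per Dnmt1 count in each library; middle and right, log2 CPM of Dnmt1 and of Uhrf1 against the mean log2 CPM of 16 proliferation genes, with triangles for cultures and circles for tumors (red CT-26, blue Colon 26). Tumors lie above cultures in the ratio, and the 3 CT-26 cultures stand apart at the low end of both scatter plots.

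Among the genes of new methylation, Dnmt3b was higher in Colon 26 in culture and at each tumor size, at a low level. It measured 0.419, 1.11 and 1.21 CPM in CT-26 cultures (9, 30 and 29 counts) and 3.42, 3.82 and 4.96 CPM in Colon 26 cultures. The groups did not overlap (log2 2.17, SE 0.251, adjusted p = 7.1e-07), and the log2 fold change was 1.87 to 2.40 when any 1 culture was left out. In 100 mm3 tumors Dnmt3b was 1.86, 2.39, 2.73 and 2.75 CPM in CT-26 and 3.71, 3.93, 4.70 and 4.94 CPM in Colon 26. The models did not overlap at any of the 3 sizes, and Dnmt3b differed at each, by log2 0.82 (SE 0.173, adjusted p = 0.004), 1.14 (SE 0.159, adjusted p = 0.00052) and 0.88 (SE 0.153, adjusted p = 0.00082) from the smallest to the largest. The gap was smaller in tumors of 100 mm3 than in culture, by an interaction of -1.36 (SE 0.375, adjusted p = 0.0093). Dnmt3b had risen from culture to tumor in CT-26 (log2 1.41, SE 0.35, adjusted p = 0.0068), while in Colon 26 it was 4.06 CPM in culture and 4.32 CPM in tumors (log2 fold change 0.10, 95% interval -0.28 to 0.47, adjusted p = 0.62).

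Dnmt3a, the more abundant of the catalytic pair, was higher in Colon 26 cultures (46.9, 47.6 and 49.0 CPM) than in CT-26 cultures (22.5 to 24.3 CPM). The groups did not overlap, and Dnmt3a was DE at log2 1.10 (SE 0.044, adjusted p = 1e-12). At 100 mm3 it was 33.6, 34.5, 35.3 and 43.3 CPM in CT-26 and 39.7, 39.8, 40.3 and 41.6 CPM in Colon 26. The highest of these values came from the CT-26 tumor that also had the most Ptprc, the pan-leukocyte gene, with 186 CPM against 70.8 to 84.3 CPM in the other 3 tumors of that group. Dnmt3a did not pass there with that tumor (log2 0.13, adjusted p = 0.24) and passed without it (log2 0.22, adjusted p = 0.0061). The models did not overlap at 400 mm3 (log2 0.31, SE 0.099, adjusted p = 0.03) or at 800 mm3 (log2 0.54, SE 0.07, adjusted p = 0.00012). The call at 400 mm3 was lost in both limma fits on FPKM (adjusted p = 0.2). From culture to the 100 mm3 tumor Dnmt3a rose in CT-26 (log2 0.67, SE 0.112, adjusted p = 0.00084) and fell in Colon 26 (log2 fold change -0.24, SE 0.036, adjusted p = 0.00023), and the interaction was -0.96 (SE 0.117, adjusted p = 1.7e-05). The antisense gene Dnmt3aos, which shares exon sequence with Dnmt3a, had at most 3 counts in any library.

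Dnmt3l, the inactive partner, was higher in culture than in 100 mm3 tumors. It had 54, 69 and 91 counts in Colon 26 cultures (1.46, 1.68 and 2.19 CPM) and 14, 14 and 26 counts in CT-26 cultures (0.652, 0.584 and 0.965 CPM). The cultures did not overlap (log2 1.31, SE 0.256, adjusted p = 0.00021). In the 24 tumors it had 2 to 22 counts, which allows little precision. It fell from culture to the 100 mm3 tumor in Colon 26 (log2 fold change -1.78, SE 0.241, adjusted p = 0.00013) and in CT-26 (log2 fold change -1.34, SE 0.479, adjusted p = 0.035). The fall in CT-26 did not pass without the culture that had 26 counts (log2 fold change -1.10, adjusted p = 0.14). The tumor rich in Ptprc had 2 counts of Dnmt3l, against 9 to 11 in the other 3 of its group. Without it the interaction of model and tissue passed (log2 -0.84, adjusted p = 0.099), and with it did not (-0.49, adjusted p = 0.51). The gene Aire overlaps Dnmt3l exons on the other strand and had 0 to 2 counts in the 6 cultures and up to 15 in tumors. The handling of strand is not given in the sources used here.

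**Figure D4:**
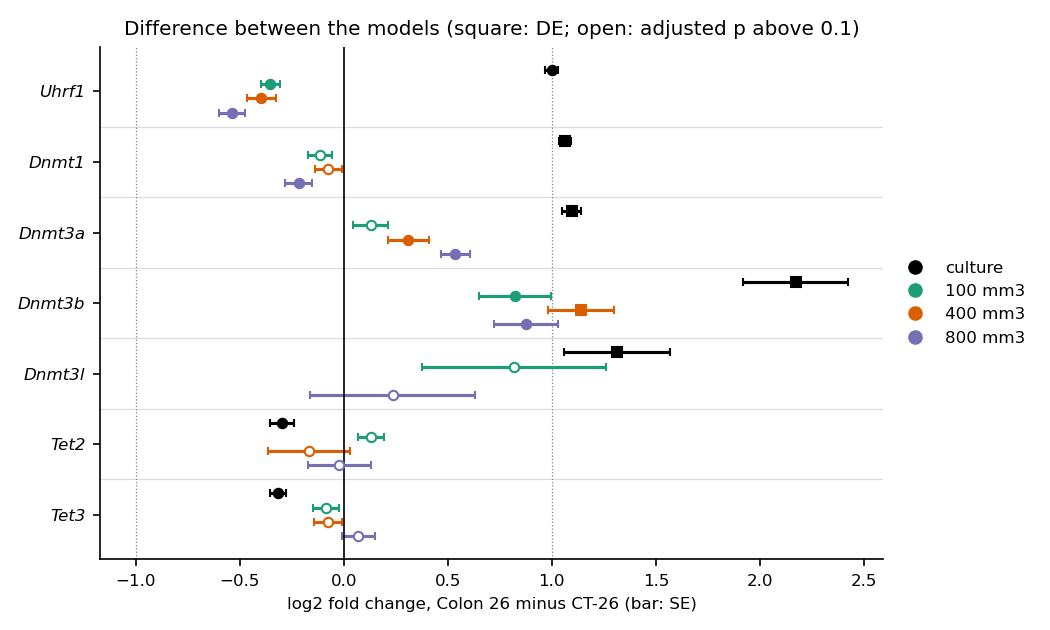
Log2 fold change between the models, Colon 26 minus CT-26, with its SE for the 7 members tested, in culture and at the 3 tumor sizes; squares are DE, open circles have an adjusted p above 0.1 and dotted lines mark a log2 fold change of 1. In culture Dnmt1, Uhrf1, Dnmt3a, Dnmt3b and Dnmt3l lie near or beyond 1 and Tet2 and Tet3 below 0. In tumors Dnmt3b lies between 0.82 and 1.14, while Dnmt3l has wide errors.

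The Tet genes went the other way in culture. Tet2 measured 33.8, 33.9 and 34.1 CPM in CT-26 cultures and 24.5, 26.1 and 29.2 CPM in Colon 26 cultures. Tet3 measured 58.7, 62.2 and 63.4 CPM in CT-26 cultures and 46.8, 47.7 and 48.1 CPM in Colon 26 cultures. Neither pair of groups overlapped, and both genes were lower in Colon 26 by modest folds (Tet2 log2 fold change -0.30, SE 0.058, adjusted p = 0.00021; Tet3 -0.32, SE 0.039, adjusted p = 1.7e-06).

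Neither Tet gene passed the test between the tumors of the models. Tet2 came nearest at 100 mm3, with 28.3, 30.3, 32.2 and 33.4 CPM in CT-26 and 33.5, 34.0, 34.5 and 35.1 CPM in Colon 26, groups that did not overlap. Its log2 fold change there was 0.13 (adjusted p = 0.11), which passed with library size scaling alone (log2 0.18, adjusted p = 0.032). Over all 24 tumors the log2 fold change was 0.01 for Tet2 (95% interval -0.19 to 0.21) and 0.00 for Tet3 (95% interval -0.09 to 0.09). With any 1 tumor left out it was -0.05 to 0.037 for Tet2 and -0.05 to -0.011 for Tet3. The range for Tet3, like that for Dnmt1 above, does not include the value of the full fit, and the reason was not tested. From culture to the 100 mm3 tumor in Colon 26, Tet3 rose from 47.5 to 68.9 CPM (log2 0.54, SE 0.053, adjusted p = 1.6e-05) and Tet2 from 26.6 to 34.3 CPM (log2 0.37, SE 0.062, adjusted p = 0.00055). In CT-26, Tet3 rose from 61.4 to 72.6 CPM (log2 0.25, SE 0.067, adjusted p = 0.01), a call lost with limma on FPKM (adjusted p = 0.12 and 0.13). Tet2 in CT-26 was 33.9 and 31.0 CPM (log2 fold change -0.12, adjusted p = 0.19), a fall that passed without the tumor rich in Ptprc (log2 fold change -0.18, adjusted p = 0.032). The interaction was 0.44 for Tet2 (SE 0.097, adjusted p = 0.0022) and 0.24 for Tet3 (SE 0.086, adjusted p = 0.035), the latter lost with no filter on low counts (adjusted p = 0.12). Tet2 spread widely within the larger tumors, from 31.5 to 52.4 CPM in CT-26 tumors of 400 mm3. Tet1 had 0 to 8 counts in every library, so no difference in Tet1 was detectable at this depth.

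**Figure D5:**
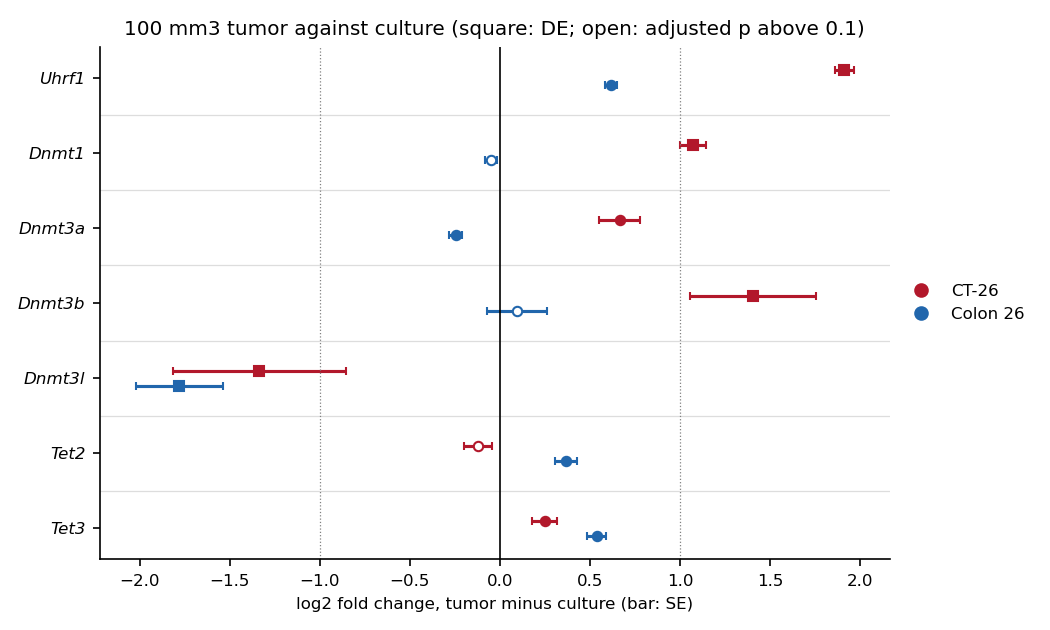
Log2 fold change from culture to the 100 mm3 tumor with its SE for the 7 members tested, in CT-26 (red) and Colon 26 (blue); squares are DE, open circles have an adjusted p above 0.1. Uhrf1, Dnmt1 and Dnmt3b are DE and higher in tumors of CT-26 and not of Colon 26, while Dnmt3l is DE and lower in both.

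Counted together, in culture 4 members were DE, all higher in Colon 26, where 22.9% of all genes tested were DE, and all 7 tested members differed, where 82.6% of genes did. A share of 7 in 7 is thus close to the background. At 100, 400 and 800 mm3, 0, 1 and 0 members were DE (background 13.2%, 14.3% and 14.1%) and 2, 3 and 4 differed (background 56.5%, 52.2% and 59.4%). Over all tumors 0 were DE (14.6%) and 4 differed (72%). From culture to tumor 4 members were DE in CT-26 (32.2%) and 1 in Colon 26 (26.9%), and 6 and 5 differed (75.5% and 78.9%). For the interaction of model and tissue 3 were DE (17.6%) and 6 differed (51%).

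With tumor growth few members passed the test. From 100 to 400 mm3 no member was DE or differed in CT-26 (background 1.14% and 11.7%) or in Colon 26 (0.083% and 0.338%). From 100 to 800 mm3 none differed in CT-26, where edgeR called 0 of 15646 genes, with 1697 at an unadjusted p under 0.05, among them Dnmt3a (log2 fold change -0.23, unadjusted p = 0.037). In Colon 26, where 1.9% of genes differed, Uhrf1 fell from 204 to 172 CPM (log2 fold change -0.26, SE 0.061, adjusted p = 0.08), a call that was lost in 8 of the 12 fits with 1 tumor left out. For the change with size between the models no member was DE or differed (background 0.0485% and 0.23%). Dnmt3a came nearest, with a log2 difference of 0.41 (SE 0.125, adjusted p = 0.21), which passed with DESeq2 (adjusted p = 0.092).

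Within the groups of tumors, the deviations of Dnmt1 and Uhrf1 from their group means had a Pearson r of 0.53 over 24 tumors, and each had r = 0.53 and 0.58 with the proliferation mean. Dnmt1 also had r = 0.66 with the mean of the leukocyte markers. Dnmt3b had r = 0.73 with the mean of the 6 endothelial markers and 0.55 with that of the fibroblast markers, and at 100 mm3 the summed endothelial markers were 65.9 to 220 CPM in CT-26 and 118 to 162 CPM in Colon 26. The summed fibroblast markers at 100 mm3 were 1390 to 2350 CPM in CT-26 and 2660 to 3380 CPM in Colon 26, without overlap. At 100 and 400 mm3, 3 of the 6 were DE and higher in Colon 26 and 1 DE and lower (background 13.2% and 14.3%). The part of other cell types in these levels was not tested. Tet2 and Tet3 had r = 0.39 with each other and negative r with most marker means. These values share library depth and scaling and are descriptions. Over the 8 group means, the genes whose pattern was most like that of Dnmt1 were Incenp, Knl1 and Cenpe, genes of the mitotic chromosome, with r = 0.996 to 0.997 among 8564 candidates. Those most like Uhrf1 were Phf19, Lhx6 and Mcm6 (r = 0.993 to 0.996), those most like Dnmt3a were Nr1h3, Plut and Thbd (0.978 to 0.983), and those most like Dnmt3b were Ints9, Kyat3 and Tubgcp4 (0.996 to 0.997). For Dnmt3l they were Herpud1, Gm13496 and Rpp14 (at most 0.980), for Tet2 Kdm3a, Bhlhe40 and Nrcam (0.940 to 0.949) and for Tet3 Vwa5a, Gm17066 and Gm15832 (0.986 to 0.989). Tet1 was left out because its counts were at the floor.

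The partners of maintenance methylation leaned higher in Colon 26 culture than in CT-26 culture. Of 12 such genes, all tested, 11 were higher and 1 lower by adjusted p (median log2 0.42 against 0.01 over all genes), where 82.6% of all genes differed. With 1 DE gene the list lay below the background of 22.9%, and that gene was Cdca7, an activator of the remodeller Hells (log2 1.44, SE 0.038). From culture to the CT-26 tumor 10 were higher and 1 lower (median 0.58 against 0.06, background 75.5%). Of the 12, 3 were DE (background 32.2%), namely Lig1, the replicative DNA ligase (log2 1.85, SE 0.111), Suv39h1 (1.20, SE 0.085) and Cdca7 (1.09, SE 0.077). In Colon 26 tumors, where Uhrf1 rose, 4 of the partners were higher and 8 lower (median -0.12 against 0.05, background 78.9%) and none was DE (background 26.9%). The interaction was DE for Lig1 (-1.46), Cdca7 (-1.25) and Hells (-1.08).

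The 8 genes listed as readers of methylated DNA, or as relatives of such readers (Mbd3), showed no shared direction in culture. Of these, 3 were higher and 4 lower in Colon 26 (median -0.03, background 82.6%). Zbtb4 was the DE reader among all tumors, with a mean at 100 mm3 of 19.9 CPM for CT-26 tumors and 74.1 CPM for those of Colon 26 (log2 1.99 over all tumors, SE 0.063). Mbd3 was DE and higher in CT-26 tumors than in culture (SE 0.111, adjusted p = 4.3e-05), with means of 69.9 CPM in culture and 151 CPM at 100 mm3.

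Of 12 genes of demethylation repair, 11 were tested in culture, where 7 were higher and 3 lower in Colon 26 (median 0.43), a share near the 82.6% of all genes that differed. Tdg, the glycosylase that removes Tet products, was DE and higher in Colon 26 culture (log2 1.23, SE 0.058), Lig3 was DE and higher (log2 1.16, SE 0.035) and Smug1 DE and lower (log2 fold change -1.13, SE 0.06). Gadd45a, a stress-induced gene, fell from culture to tumor in both models, from 235 to 27.0 CPM in CT-26 and from 126 to 11.2 CPM in Colon 26. Tdg fell in Colon 26 tumors (log2 fold change -1.09, SE 0.056) and Neil3 rose in CT-26 tumors (log2 1.51, SE 0.149).

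Among 12 recruitment and protection factors, 10 were tested in culture, with 6 higher and 3 lower in Colon 26 (median 0.30), again near the background of 82.6%. Nsd1, which writes a histone mark that Dnmt3a reads, was 6.58 ± 1.19 CPM in CT-26 culture and 0.605 ± 0.207 CPM in Colon 26 culture (SD, n = 3), against group means of 21.9 to 30.3 CPM in tumors. It was DE in culture (log2 fold change -3.37, SE 0.217) and in the interaction (log2 3.41, SE 0.279). Zfp57 was DE and lower (log2 fold change -1.11) and Cxxc5 DE and higher (log2 1.10) in Colon 26 culture, and Trim28 was DE and higher in CT-26 tumors than in culture (log2 1.04).

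In the supply of methyl donor and oxoglutarate, 13 genes were tested in culture, with 5 higher and 6 lower in Colon 26 (median 0.01), also near 82.6%. Mat2a, which makes S-adenosylmethionine, was 598 CPM in CT-26 culture and 204 CPM in Colon 26 culture (adjusted p = 1.9e-16), and 270 CPM in CT-26 tumors of 100 mm3. Idh1, which makes the oxoglutarate that Tet enzymes use, was lower in Colon 26 culture (log2 fold change -1.46, SE 0.054) and higher in Colon 26 tumors than in culture (log2 1.34, SE 0.097).

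Genes known to be silenced by promoter methylation were read last. Of 20 germline genes 5 passed the filter in culture, where 4 were lower in Colon 26 and 3 of these DE, against 82.6% of all genes that differed and 22.9% that were DE. The list was chosen with earlier results of these data known, and a gene high in 1 line alone can pass the filter. Their shared direction is therefore a description only. Rhox5 was 181, 185 and 186 CPM in CT-26 cultures and 0.337, 0.622 and 0.635 CPM in Colon 26 cultures (log2 fold change -8.38, SE 0.073), and 124 to 173 against 0.0923 to 0.747 CPM in tumors. Taf7l was 13.7 to 15.9 CPM in CT-26 cultures and 0.987 to 1.32 CPM in Colon 26 cultures, but 0.131 to 3.21 CPM in CT-26 tumors and at most 1 count in any Colon 26 tumor. At least 12 of the 20 had no more than 3 counts in any library of each group. Of 18 imprinted genes, 12 were at that floor in CT-26 culture and 13 in Colon 26 culture, and 10 to 12 reached 1 CPM in the tumor groups, so no fold is given against culture. Methylation of DNA was not measured in these libraries.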

How the data were processed

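The authors counted reads on Ensembl genes with Array Studio and deposited estimated counts, which are not normalized, and FPKM. They tested counts with DESeq2 (1.24.0 per the labels). The aligner and the strand setting are not given in the sources used here. Of the deposited estimated counts above 0.5, 22.5% were not whole, and counts were rounded. Groups came from the labels. Each comparison was fitted to its own libraries with edgeR 4.0.16 in R 4.3.3 (TMM, filterByExpr, quasi-likelihood test), and SEs were derived from F. DESeq2 1.42.0, limma 3.58.1 on FPKM, other scalings, filters and thresholds, 1 fit of all 30 libraries, and leaving out each library were alternatives. Fits were tested on simulated data. Permutation tests used scipy 1.17.1. CPM are TMM-scaled over 30 libraries, and log2 CPM used a prior count of 2. Coordinates are from GENCODE (GRCm38).

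The members and lists were chosen with earlier results of these data known. All members are named, and from each list up to 3 DE genes per direction by size of log2 fold change. Likeness used genes with at least 10 counts on average and a range of at least 1 over group means. Depth and floors (3 counts) cover counting error only.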

Additional observations from a re-analysis of the deposited data

Results flagged for a closer look

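The change from culture to the 100 mm3 tumor differed between the models, by the interaction term of edgeR's fit at an adjusted p of at most 0.1, for 6 of the 7 members tested. The term, Colon 26 minus CT-26 on the log2 scale, was -1.36 for Dnmt3b, -1.34 for Uhrf1, -1.17 for Dnmt1 and -0.96 for Dnmt3a, and 0.44 for Tet2 and 0.24 for Tet3, the last lost with no filter on low counts (adjusted p = 0.12). Of all genes tested 51% passed the same rule. No member passed it for the change from 100 to 800 mm3. Among 48 sets of a member and a tumor group, Dixon's test set 1 library apart from the other 3 of its group, where chance gives about 1 in 20. It was Dnmt3l in the Ptprc-rich CT-26 tumor of 100 mm3, at 0.0654 CPM against 0.351 to 0.380 CPM, or 2 counts against 9 to 11.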

How the results depend on the processing

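The number of DE members stayed within 1.5 times that of the report in every fit with 1 library left out. With no minimum fold change the counts became 7 in culture, 2, 3 and 4 at 100, 400 and 800 mm3, 4 over all tumors, 5 from culture to tumor in Colon 26, 1 from 100 to 800 mm3 in Colon 26 and 6 for the interaction of model and tissue. On log2(FPKM + 1), which compresses low genes, they became 1 in culture, 0 at 400 mm3, and 2 in CT-26 and 0 in Colon 26 from culture to tumor. A minimum of 10 counts in every library left 2 from culture to tumor in CT-26, since Dnmt3b and Dnmt3l were no longer tested, and no filter gave 2 in Colon 26. Library size scaling alone gave 1 over all tumors, as did leaving out the tumors with Ckm, a muscle gene, above 10 CPM (chosen after seeing the data), where Dnmt3b passed 1 on the log2 scale. The Ckm rule dropped all 4 Colon 26 tumors of 100 mm3, the size with the smallest Dnmt3b difference (log2 0.82). That fit therefore compared the models at 400 and 800 mm3 only. For single members, no called change took the opposite sign. Thinning the cultures to the lowest total, also added later, left Dnmt3b at log2 2.17. The Uhrf1 to Dnmt1 ratio by FPKM kept its direction in the 6 comparisons. Within a library this ratio departs from the count ratio by little more than gene length, so it is not a separate check. No paired analysis was possible because the labels carry no replicate numbers. Depth limits Tet1, Dnmt3l and Dnmt3b.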
